A study of Mus musculus with 6 samples.

Results

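The genes described here encode the machinery of oxidative phosphorylation in mouse lung mesenchymal cells: the nuclear-encoded subunits of the 4 respiratory chain complexes and of ATP synthase, with a few assembly factors. They were chosen by gene symbol (the Ndufa, Ndufb, Ndufc, Ndufs and Ndufv names, Sdha to Sdhd, Uqcr, Cox4i1, Cox5 to Cox8 and Atp5) and by a mean normalized count of at least 10. This gave 90 of the 29322 genes in the authors' deposited table. RNA was sequenced in bulk from adult animals, 3 Yeti+/- libraries and 3 wild-type libraries. The Yeti allele, heterozygous here and absent from the wild-type animals, is a gain of function of Ifng, which encodes the cytokine interferon-gamma. In both groups the cells were taken by flow sorting from the fraction without CD45 (leukocytes), CD31 (endothelium), Epcam (epithelium) or DAPI staining, which marks dead cells. The labels of both groups also name tamoxifen injection, with no allele it would act on, and an extraction protocol that speaks of cultured cells.

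Oxidative phosphorylation takes electrons from NADH and succinate, passes them down the respiratory chain to oxygen, and uses the proton gradient built on the way to make ATP. Complex I oxidizes NADH, complex II oxidizes succinate, complex III passes electrons from ubiquinol to cytochrome c, complex IV reduces oxygen, and complex V is the ATP synthase. Most subunits are encoded in the nucleus and a small core in mitochondrial DNA, so the complexes are built from both genomes. In macrophages, interferon-gamma is known to go with a shift towards glycolysis.

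The 90 genes hold 78 structural subunits: 36 of complex I, 4 of complex II, 8 of complex III, 15 of complex IV and 15 of complex V. The other 12 are the 8 complex I assembly factors Ndufaf1 to Ndufaf8, 3 genes with subunit-like names (Cox7a2l, a factor of respiratory supercomplexes, Ndufa4l2, a paralog of Ndufa4, and Atp5s), and a numbered pseudogene, Atp5k-ps2. The name rule fitted 95 genes, of which 5 fell below the limit of 10. The highest of these 5 was Atp5l-ps2, at a mean of 7.98 normalized counts, and the only one that is not a pseudogene was Cox7b2, at 1.11. The members nearest above the limit were Cox6a2 (21.1) and Atp5k-ps2 (21.2), so no member lay close to it. All 90 had an adjusted p in the authors' deposited table.

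Promoters are shown first for the 3 genes with the smallest p-values among the 73 members with a promoter in the RefSeq table. Each line gives the 200 bases before the RefSeq start (build GRCm38.p6), and capitals mark the ETS family letters CCGGAAG and the palindromic motif of nuclear respiratory factor 1, on either strand. Both motifs are known from promoters of respiratory chain genes.
Cox7c, chr13:86046796-86046995, minus strand: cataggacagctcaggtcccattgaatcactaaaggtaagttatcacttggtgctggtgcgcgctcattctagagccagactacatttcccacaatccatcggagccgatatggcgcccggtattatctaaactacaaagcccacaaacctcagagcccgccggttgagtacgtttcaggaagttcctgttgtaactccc
Cox8a, chr19:7217617-7217816, minus strand: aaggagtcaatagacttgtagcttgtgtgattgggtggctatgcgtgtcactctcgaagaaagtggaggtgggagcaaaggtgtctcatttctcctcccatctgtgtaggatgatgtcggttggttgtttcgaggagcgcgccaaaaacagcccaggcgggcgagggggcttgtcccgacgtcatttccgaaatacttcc
Ndufaf8, chr11:120098734-120098933, plus strand: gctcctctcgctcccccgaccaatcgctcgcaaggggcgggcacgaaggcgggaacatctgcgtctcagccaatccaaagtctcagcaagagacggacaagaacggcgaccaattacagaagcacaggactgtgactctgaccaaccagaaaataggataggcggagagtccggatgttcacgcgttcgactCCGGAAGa
In these windows Ndufaf8 held 1 ETS match and no nuclear respiratory factor 1 match, and Cox7c and Cox8a held no match to either. For contrast, 3 abundant members with the nuclear respiratory factor 1 letters in the same window are shown. The choice did not cover all members, so they are not a ranking of the whole set.
Sdha, chr13:74350241-74350440, minus strand: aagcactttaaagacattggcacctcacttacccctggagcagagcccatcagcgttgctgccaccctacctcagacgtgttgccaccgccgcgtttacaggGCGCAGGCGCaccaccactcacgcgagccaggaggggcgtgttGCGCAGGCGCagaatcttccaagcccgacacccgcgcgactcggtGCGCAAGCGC
Cox6a1, chr5:115348959-115349158, minus strand: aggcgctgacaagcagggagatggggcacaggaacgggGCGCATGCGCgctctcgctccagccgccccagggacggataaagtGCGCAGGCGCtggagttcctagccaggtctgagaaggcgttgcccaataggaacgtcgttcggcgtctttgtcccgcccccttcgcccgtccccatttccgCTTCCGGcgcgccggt
Atp5h, chr11:115419920-115420119, minus strand: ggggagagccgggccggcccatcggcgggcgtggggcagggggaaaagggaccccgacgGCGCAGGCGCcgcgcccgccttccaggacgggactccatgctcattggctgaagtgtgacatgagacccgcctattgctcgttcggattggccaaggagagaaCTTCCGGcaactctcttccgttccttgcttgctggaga
The Sdha window held 3 such matches, Cox6a1 2 and Atp5h 1.

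Over windows of 250 bases before to 50 after the start, the nuclear respiratory factor 1 letters were in 24.7% of the 73 member promoters, 9.19% of 11839 promoters of other genes with a mean of at least 10, and 4.78% of all 27025. CCGGAAG was in 23.3%, 16.3% and 9.12% of the same sets, and AAGATGGC, a form of the Yy1 motif, in 12.3%, 4.20% and 2.88%. No AAGATGGC match overlapped a CCGGAAG match in the member promoters. At least 1 of these 3 motifs was found in 38 of the 73. The letters of interferon-responsive elements were no more frequent than elsewhere: TTCNNNGAA, the gamma-activated site, was in 5.48% of the member promoters, 6.93% of those of other measured genes and 8.47% of all, and the core of the interferon-stimulated response element in 2.74%, 3.24% and 3.49%. All were searched on both strands. A match is a description of letters, not a bound site, and promoter windows of the 17 other members were not used here.

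None of the 90 genes passed the test between Yeti and wild-type cells, and all point estimates lay within a narrow range around equal levels. The authors' deposited table (DESeq2 Wald test, Benjamini-Hochberg adjustment, threshold 0.05) calls 0 of 90 members, against 2.84% of the 20212 genes with an adjusted p (1.85% higher and 0.994% lower in Yeti). The smallest adjusted p of a member in the authors' deposited table was 0.416. At an unadjusted p under 0.05, 3 members were higher and 0 lower in the authors' deposited table, against a background of 5.28% higher (9.28% in either direction, with 808 of 20212 genes lower). All 90 fold changes were smaller than 0.5 in size on the log2 scale, and 81 were smaller than 0.25. The median log2 fold change of the members was 0.11, that is 1.08-fold, against -0.00092 over all genes with an adjusted p in the authors' deposited table.

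A p that misses the threshold does not show equal levels, so the width of each estimate matters. In the authors' deposited table the 95% interval of the log2 fold change (the fold change plus or minus 1.96 standard errors, for each gene by itself) lay within 0.5 of 0 for 70 members and within 1 of 0, a 2-fold difference, for 87. The other 3 were Cox6a2, Cox8b and Atp5k-ps2, all with means under 50. The largest unadjusted p that still passed in the authors' deposited table was 0.00142, so a member at the median standard error would have been called from a log2 difference of 0.42, or 1.34-fold. This limit ran from 0.31 for Uqcrc2 to 1.90 for Cox6a2. Computed back from the standard errors of the authors' model, the implied coefficient of variation had a median of 11.1% and a range of 8.23% to 50.7%. It is not a spread measured between the libraries. The authors' deposited table holds no values per library, so levels below are fitted group levels, computed from its mean and fold change, and overlap between libraries could not be looked at.

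**Figure D1:**
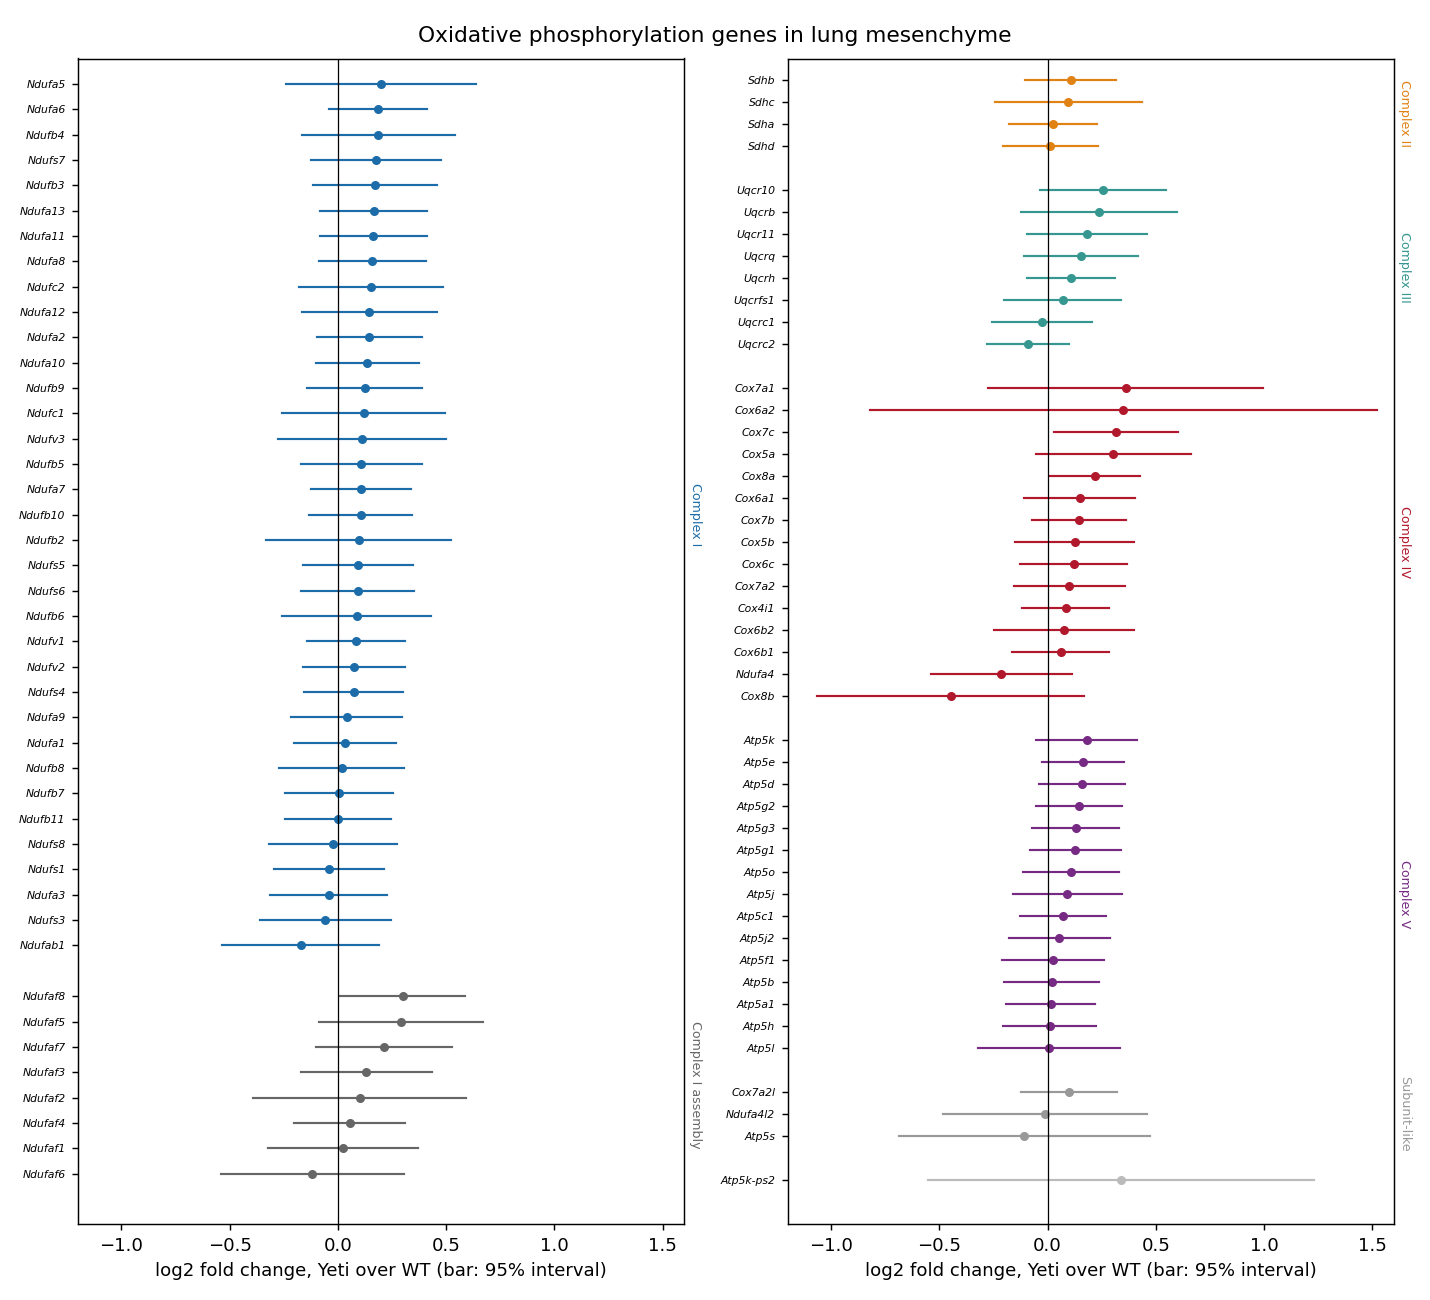
Log2 fold change, Yeti over WT, of 89 of the 90 genes (points), each with its 95% interval (bars) from the authors' deposited standard errors, ordered within complexes. Points lean to the right of 0 in every complex while 86 of the 89 intervals include 0; the 4 widest bars belong to the low-abundance genes Cox6a2, Atp5k-ps2, Cox7a1 and Cox8b.

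The members together took a nearly equal share of the RNA in both groups. Their fitted levels summed to 119479 normalized counts in Yeti and 113218 in wild-type, a sum 5.53% higher in Yeti. All genes together summed to 27341720 normalized counts in Yeti and 25951545 in wild-type, a total 5.36% higher in Yeti. The members thus held 0.437% of normalized counts in Yeti and 0.436% in wild-type. In bulk libraries, fewer cells of a type and less RNA per cell cannot be told apart.

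**Figure D2:**
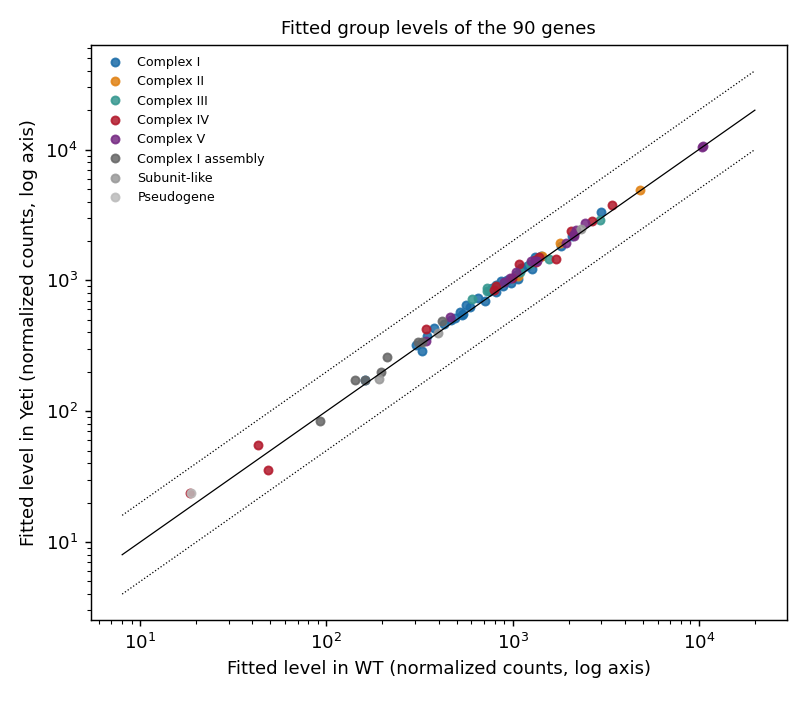
Fitted level of each of the 90 genes in Yeti (vertical axis) against WT (horizontal axis), in normalized counts on log axes, coloured by complex. The solid line marks equal levels and the dotted lines a 2-fold difference; every gene lies between the dotted lines, from Cox6a2 at a mean of 21.1 to Atp5b at a mean of 10612.

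Complex I, the entry point for electrons from NADH, showed small positive estimates in most subunits, fewer when the fold changes of genes of like length were taken as the zero point. Of its 36 subunits, 31 had a fold change above 0 and 5 below, 0 were called, and the median log2 fold change was 0.11, from -0.17 for Ndufab1 to 0.20 for Ndufa5 in the authors' deposited table. Relative to the median of coding genes in the same class of exonic length, 22 were above 0 and 14 below, with a median of 0.02. These coding genes included the members themselves, and the setting was chosen after the data were seen. Among the 7 core subunits, which include the carriers of the flavin and the iron-sulfur clusters, 4 were above 0 and 3 below, with a median of 0.07 in the authors' deposited table. Among the 29 accessory subunits 27 were above 0, with a median of 0.11. The accessory subunits Ndufa6 (0.19 ± 0.12, SE) and Ndufa13 (0.17 ± 0.13) had no call in the authors' deposited table. Ndufab1, the mitochondrial acyl carrier protein, was the lowest at -0.17 ± 0.18 in the authors' deposited table, with fitted levels of 289.0 in Yeti and 325.4 in wild-type. These values are all smaller than about 2 of their standard errors.

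None of the complex I assembly factors was called. Of 8, 7 were above 0 and 0 were called, with a median of 0.12 in the authors' deposited table. Ndufaf8 (ENSMUSG00000078572, GRCm38 chromosome 11, 120098928 to 120100705) was fitted at 260.4 normalized counts in Yeti and 211.5 in wild-type, a log2 fold change of 0.30 ± 0.15 (SE) with an unadjusted p of 0.0422 and an adjusted p of 0.490 (the authors' deposited table). Ndufaf5, an arginine hydroxylase of complex I assembly, stood at 0.29 ± 0.19, Ndufaf7, an arginine methyltransferase and the most abundant factor, at 0.21 ± 0.16, and Ndufaf6 at -0.12 ± 0.22 in the authors' deposited table. A further 41 assembly factors of all complexes also had 0 called in the authors' deposited table, against 2.84% of all genes tested. Of these, 31 were above 0 and 10 below, with a median of 0.08. Higd1a, a hypoxia-inducible factor of complex IV assembly, was the 1 of them with an unadjusted p under 0.05 (0.33 ± 0.15, adjusted p = 0.377). Cox10, which makes heme O for complex IV, stood at 0.27 ± 0.14, and Coa5, the most abundant, at 0.13 ± 0.11, by the authors' deposited table.

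Complex II, which is also the succinate dehydrogenase of the citric acid cycle, showed the smallest median of the complexes. All 4 subunits were above 0, with a median log2 fold change of 0.06, and 0 were called in the authors' deposited table. The flavoprotein Sdha (ENSMUSG00000021577, chromosome 13, 74322254 to 74350280) was fitted at 4939 normalized counts in Yeti and 4855 in wild-type, a log2 fold change of 0.02 with a 95% interval of -0.18 to 0.23 in the authors' deposited table. The iron-sulfur subunit Sdhb stood at 0.11 ± 0.11 and the membrane anchors Sdhc at 0.10 ± 0.17 and Sdhd at 0.01 ± 0.11 in the authors' deposited table.

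In complex III, the small subunits and the large core proteins lay on different sides of 0, each with a 95% interval that includes 0. Relative to genes of like length, that split did not hold for every small subunit. Of 8 subunits, 6 were above 0 and 2 below, with a median of 0.13 and 0 called in the authors' deposited table. The 2 below were the core proteins Uqcrc1, the most abundant (fitted levels of 2886 normalized counts in Yeti and 2934 in wild-type, -0.02 ± 0.12), and Uqcrc2 (1467 in Yeti and 1562 in wild-type, -0.09 ± 0.10) in the authors' deposited table. The small subunits Uqcr10 (870.8 in Yeti and 729.4 in wild-type, 0.26 ± 0.15), Uqcrb (0.24 ± 0.18) and Uqcr11 (0.18 ± 0.14) were the highest in the authors' deposited table. The Rieske iron-sulfur protein Uqcrfs1 stood at 0.07 ± 0.14 in the authors' deposited table. Relative to genes of like length, members included, 4 of the 8 were above 0 and 4 below, with a median of 0.02. Uqcrfs1 and the small subunit Uqcrh then lay below 0 with the core proteins. No difference between these subunits was tested.

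Complex IV held the 2 structural subunits with an unadjusted p under 0.05 and the widest range of estimates. Of 15 genes, 13 were above 0 and 2 below, with a median of 0.12 and 0 called in the authors' deposited table. Cox7c, a small subunit of the membrane part (ENSMUSG00000017778, chromosome 13, 86044816 to 86046904), was fitted at 1343 normalized counts in Yeti and 1080 in wild-type. Its log2 fold change in the authors' deposited table was 0.31 ± 0.15, unadjusted p = 0.0313 and adjusted p = 0.416. Cox8a, another small membrane subunit (ENSMUSG00000035885, chromosome 19, 7215153 to 7217616), had 2384 in Yeti and 2049 in wild-type, at 0.22 ± 0.11 with an unadjusted p of 0.0398 and an adjusted p of 0.475 (the authors' deposited table). Cox5a stood at 0.30 ± 0.18 and Cox6a1, the most abundant of the complex, at 0.15 ± 0.13 (3789 in Yeti and 3420 in wild-type) in the authors' deposited table. Ndufa4, once assigned to complex I and now to complex IV, was the abundant subunit with the lowest estimate, with fitted levels of 1466 normalized counts in Yeti and 1700 in wild-type. Its log2 fold change was -0.21 ± 0.17 with a 95% interval of -0.54 to 0.11 in the authors' deposited table.

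Several complex IV subunits exist as a broadly expressed and a tissue-restricted isoform, and the lung mesenchyme carried mainly the broad forms. Per kilobase of exonic length, the mean level over both groups was 6312 normalized counts for Cox6a1 and 31.0 for its heart and muscle isoform Cox6a2. The same scale gave 1242 for Cox7a2 and 91.1 for its muscle isoform Cox7a1, and 4030 for Cox8a and 117 for its muscle and brown fat isoform Cox8b. Cox6b2, known as a testis isoform, was the exception, at 1369 per kilobase against 2210 for Cox6b1. Ndufa4l2, known as a hypoxia-induced and pericyte-rich paralog, stood at 424 per kilobase against 2537 for Ndufa4.

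None of the restricted isoforms was called, and the errors of the 3 muscle isoforms were wide. The 3 muscle isoforms had the 2 highest and the lowest estimates of all members in the authors' deposited table: Cox7a1 at 0.36 ± 0.32 (54.8 normalized counts in Yeti and 42.7 in wild-type), Cox6a2 at 0.35 ± 0.60 (23.7 in Yeti and 18.6 in wild-type) and Cox8b at -0.45 ± 0.32 (35.6 in Yeti and 48.6 in wild-type). Cox6b2 stood at 0.07 ± 0.17, beside 0.06 ± 0.11 for Cox6b1, and Ndufa4l2 at -0.01 ± 0.24 in the authors' deposited table. The supercomplex factor Cox7a2l stood at 0.10 ± 0.11, beside 0.10 ± 0.13 for Cox7a2 and 0.08 ± 0.10 for Cox4i1, the broad isoform of subunit 4, in the authors' deposited table. Cox4i2, the lung-rich isoform of subunit 4 that the name rule leaves out, stood at 0.18 ± 0.26 with fitted levels of 241.2 in Yeti and 212.3 in wild-type in the authors' deposited table. Of 13 heart and skeletal muscle markers with a value, 12 had an adjusted p and 1 was called higher, against 1.85% of all genes tested. It was Tnni3, cardiac troponin I (0.90 ± 0.27, adjusted p = 0.0369), and no other had an unadjusted p under 0.05 in the authors' deposited table. Of the 13, 12 lay above 0, against 49.8% of all genes with an adjusted p. Their summed fitted level was 8206 in Yeti and 6764 in wild-type. Myh1, a fast skeletal muscle myosin, stood at -0.91 ± 0.65, and Actc1, cardiac actin and the most abundant of them, at 0.27 ± 0.43 in the authors' deposited table. Of 6 brown adipocyte markers, 4 had an adjusted p and 0 were called, with Plin1 at 1.02 ± 0.45, Dio2 at 0.55 ± 0.30, Cidea at -0.64 ± 0.70 and Ucp1 at a mean of 1.69 in the authors' deposited table. Of the 6, 5 lay above 0 and 1 below, and their summed fitted levels of 942.8 in Yeti and 657.8 in wild-type came mostly from Dio2 (817.2 in Yeti and 557.2 in wild-type). The part of such cells in the isoform levels was not tested.

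Complex V, the ATP synthase, had the highest summed count of the complexes, not divided by length, and every estimate above 0. All 15 genes lay between 0.01 and 0.18 on the log2 scale, with a median of 0.09 and 0 called in the authors' deposited table. Relative to genes of like length, members included, 9 of the 15 were above 0 and 6 below, with a median of 0.02. The catalytic beta subunit Atp5b was the most abundant gene of all members (ENSMUSG00000025393, chromosome 10, 128083273 to 128090391), with fitted levels of 10679 normalized counts in Yeti and 10545 in wild-type. Its log2 fold change was 0.02, with a 95% interval of -0.20 to 0.24 in the authors' deposited table. The alpha subunit Atp5a1 stood at 0.01 ± 0.11, and the small F1 subunits Atp5d (delta) and Atp5e (epsilon) at 0.16 ± 0.10 each in the authors' deposited table. Atp5k, the e subunit of the membrane part, stood at 0.18 ± 0.12 in the authors' deposited table. The 3 genes of the c ring, which encode the same mature protein, stood at 0.13 ± 0.11 (Atp5g1), 0.14 ± 0.10 (Atp5g2) and 0.13 ± 0.10 (Atp5g3) in the authors' deposited table. The 4 genes of the peripheral stalk had a median of 0.06 in the authors' deposited table. Atp5s, a subunit-like gene, stood at -0.11 ± 0.30, and the pseudogene Atp5k-ps2, of which 210 bases match Atp5k closely, at 0.34 ± 0.46 in the authors' deposited table.

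Estimates leaned the same way in most members, and coding genes of similar length leaned that way too. Of the 90 members, 78 were above 0 and 12 below by the authors' deposited table, against 49.8% above 0 of all genes with an adjusted p. The members are short, with a median exonic length of 1001 bases, against 3467 for the 11699 coding genes with a mean of at least 100. Among other coding genes of that abundance, the median log2 fold change was 0.13 under 700 bases, 0.09 from 700 to 1000, 0.08 to 1500, 0.05 to 2500, 0.02 to 4000 and -0.04 above that, in the authors' deposited table. Members of the first 3 classes had medians of 0.11 (21 genes), 0.12 (20 genes) and 0.11 (20 genes). The classes above that had member medians of 0.07 (15 genes), 0.04 (6 genes) and 0.10 (3 genes), with few genes behind each. Of 364 other coding genes under 1000 bases, 73.1% were above 0. With each fold change taken relative to the median of its length class, the members' median was 0.02, with 53 above 0 and 36 below. The members counted towards the class medians used here, and the setting was chosen after the data were seen. The members were not tested against other short genes, and what sets the relation with length was not tested.

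**Figure D3:**
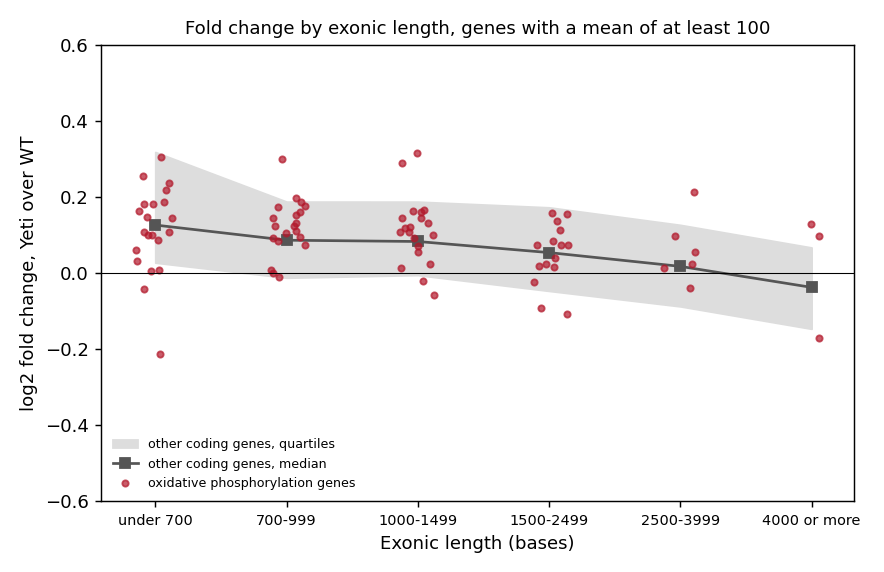
Log2 fold change, Yeti over WT, by exonic length class for coding genes with a mean of at least 100: the grey squares and band are the median and quartiles of other genes, and the red points are 85 oxidative phosphorylation genes, spread sideways for legibility. The grey median declines from 0.13 under 700 bases to -0.04 at 4000 or more, and most red points lie within or near the grey band.

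Beyond the members, 3 lists of other genes of mitochondrial energy production had no call either, against 2.84% of all genes tested. At that share a list this short can hold no call, so the counts do not set these genes apart. All 13 subunits encoded in mitochondrial DNA had a row, and 0 were called, with 7 above 0, 6 below and a median of 0.01 in the authors' deposited table. mt-Co1, the catalytic subunit of complex IV and the most abundant, had fitted levels of 104786 normalized counts in Yeti and 108484 in wild-type (-0.05 ± 0.17) in the authors' deposited table. The smallest p-values were those of mt-Co2 (0.22 ± 0.19) and mt-Nd3 (-0.22 ± 0.22) in the authors' deposited table. The 13 genes held 0.946% of normalized counts in Yeti and 1.003% in wild-type. The 8 genes of the electron carrier cytochrome c, the metabolite carriers and the ATP synthase inhibitor were all above 0, with 0 called and a median of 0.13; Cycs stood at 0.21 ± 0.19, Vdac2 at 0.13 ± 0.11 and Slc25a3, the phosphate carrier and most abundant, at 0.14 ± 0.12 by the authors' deposited table. The subunits Cyc1 (0.12 ± 0.10) and Usmg5 (0.26 ± 0.14), which the name rule leaves out, had no call in the authors' deposited table. Of 24 citric acid cycle and pyruvate genes, 0 were called, with 15 above 0 and a median of 0.03 in the authors' deposited table. Idh3a stood at 0.12 ± 0.11, the pyruvate dehydrogenase kinase Pdk4 at -0.37 ± 0.35 and Ogdh, the most abundant, at 0.01 ± 0.12 by the authors' deposited table.

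Regulators of mitochondrial biogenesis had no call, against 2.84% of all genes tested. Of 16 genes, 5 were above 0 and 11 below, with a median of -0.05 in the authors' deposited table. The list also holds Hif1a, Epas1 and Mtf1 (-0.17 ± 0.16), so its counts are not those of biogenesis regulators alone. The coactivator Ppargc1a stood at -0.45 ± 0.31 with fitted levels of 63.8 in Yeti and 87.2 in wild-type, and the mitochondrial transcription factor Tfam at -0.13 ± 0.13 in the authors' deposited table. Nrf1 itself, whose motif is counted above, stood at -0.07 ± 0.14 in the authors' deposited table. The oxygen-sensing factor Hif1a was the 1 gene with an unadjusted p under 0.05 (0.32 ± 0.13, adjusted p = 0.265), Esrra stood at 0.28 ± 0.15 and Epas1, the most abundant, at -0.32 ± 0.19, by the authors' deposited table.

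Glycolysis was the 1 energy list with a called gene. Of 20 genes, the authors' deposited table calls 1 higher and 0 lower, against a background of 1.85% called higher, and has 18 above 0 and a median of 0.15. At an unadjusted p under 0.05 in that table, 4 were higher and 0 lower, against a background of 5.28% higher. Aldoa was among the 4, at 0.22 ± 0.11 (adjusted p = 0.476). Hk2, an inducible hexokinase that starts glycolysis, had fitted levels of 1288 normalized counts in Yeti and 461.7 in wild-type and rose by 1.48 ± 0.46, adjusted p = 0.0458 in the authors' deposited table. Slc16a3, the lactate exporter, stood at 1.37 ± 0.46 (adjusted p = 0.0853), and Ldha at 0.46 ± 0.19 (adjusted p = 0.241) in the authors' deposited table. Gapdh, the most abundant, stood at 0.25 ± 0.17 by the authors' deposited table. Most markers of macrophages also lay above 0: of 11 with a value, 9 were above 0 and 2 below, with a median of 0.85 and 0 called. At an unadjusted p under 0.05, 5 were higher and 0 lower in the authors' deposited table, against a background of 5.28% higher. The summed fitted level of the 11 was 22901 in Yeti and 14719 in wild-type. Most of it came from Lyz2 (9736 in Yeti and 6279 in wild-type) and the pan-leukocyte gene Ptprc (5146 in Yeti and 4597 in wild-type). Csf1r had 3499 in Yeti and 1028 in wild-type. Mrc1 stood at -0.50 ± 0.26 and Itgam at -0.62 ± 0.55 in the authors' deposited table. Csf1r stood at 1.77 ± 0.60 (adjusted p = 0.0980) and Cd14 at 1.49 ± 0.48 (adjusted p = 0.0644) in the authors' deposited table. Lyz2, the most abundant, stood at 0.63 ± 0.38 by the authors' deposited table. The part of macrophages in the glycolysis values was not tested. No difference between the glycolysis and oxidative phosphorylation lists was tested.

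**Figure D4:**
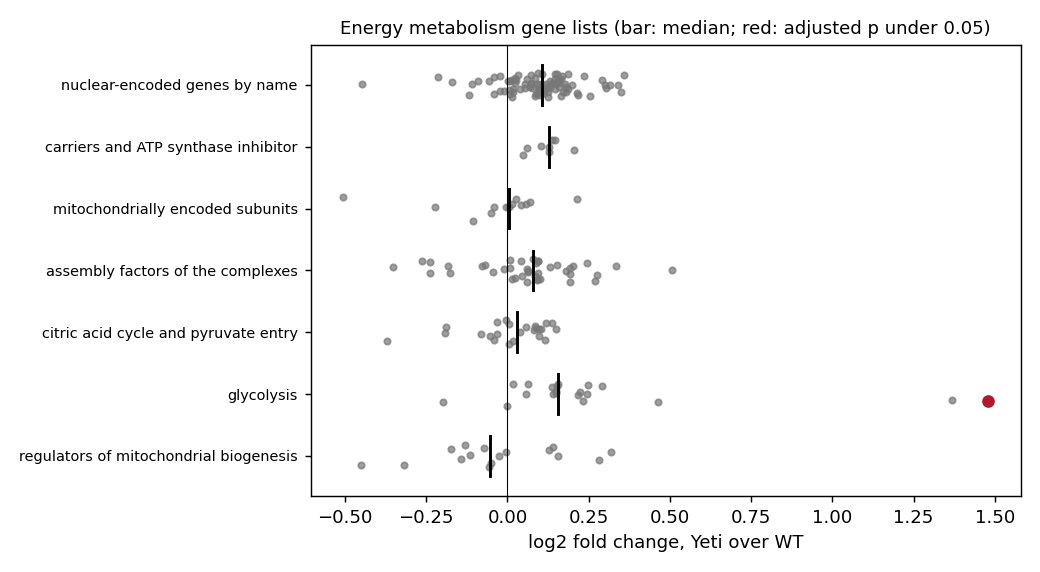
Log2 fold change, Yeti over WT, of each gene in the oxidative phosphorylation set and 6 related lists (points), with each list's median as a black bar; red marks an adjusted p under 0.05 in the authors' deposited table. The medians lie between -0.05 and 0.15, and the single red point is Hk2 at 1.48.

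The markers of the sorted cells were present in both groups. All 8 defining mesenchymal genes were abundant and 0 were called, with a summed fitted level of 566744 in Yeti and 502826 in wild-type; Col3a1, the most abundant, stood at 0.29 ± 0.17, Col1a1 at 0.28 ± 0.17 and Pdgfra at -0.12 ± 0.17 in the authors' deposited table. Of 14 pericyte and smooth muscle markers 0 were called, with 10 above 0, 4 below and a median of 0.15 in the authors' deposited table. The smooth muscle genes Acta2, the most abundant, and Tagln stood at 0.40 ± 0.39 and 0.51 ± 0.39 by the authors' deposited table. The pericyte markers lay on both sides of 0. Notch3 stood at -0.25 ± 0.29, Pdgfrb at -0.15 ± 0.22 and Trpc6 at -0.16 ± 0.31. Cspg4 stood at 0.34 ± 0.37, Higd1b at 0.13 ± 0.30, Kcnj8 at 0.11 ± 0.25 and Abcc9 at 0.00 ± 0.22. The summed fitted level of the 14 was 115058 in Yeti and 97595 in wild-type, mostly from Acta2 and Myh11. Ptprc, which encodes the CD45 that the sort selects against, had fitted levels of 5146 in Yeti and 4597 in wild-type. Of the 90 members, 27 matched a transcript of another, non-overlapping gene over at least 100 bases at 95% identity or more. Cox7c was among them with 4 such genes. Some matches were short stretches shared with many genes: Ndufaf7 matched 118 genes, with a longest match of 165 bases. In all, 40 members overlapped another annotated gene. The same shares among other genes were not computed. How the authors' counting treated reads that fit several places is not given in the sources used here, so the levels of these members are less certain than those of the other members.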

How the data were processed

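Bulk RNA-seq libraries of sorted lung mesenchyme were grouped by sample title, 3 Yeti and 3 wild-type. Per the submitters' processing notes, the tools were FastQC, STAR and DESeq (no version stated) and the build GRCm38, also called mm10. Which counter and annotation release were used is not given in the sources used here. A single table was used, the authors' deposited comparison. Its mean column is a signal, the average over libraries of counts divided by a size factor, and its fold change and standard error are log2 values, per the file headers. Its Wald statistic is a score, and each p-value, raw or adjusted, is as the authors deposited it from DESeq2. The table holds no values per library, so edgeR, named in the design for counts, was not used, and no library was dropped or imputed by the present steps. The mean normalized counts summed to 26646632 over all genes, the average depth after scaling; the depth of each library is unknown.

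Fitted group levels were computed from the mean and fold change, with equal group sizes assumed. Intervals are the authors' fold change plus or minus 1.96 of the authors' standard errors. They rest on the spread between libraries as the authors' model estimates it. Nothing in the labels says that these libraries came from separate animals. Exonic length is the union of exons of basic coding transcripts in GENCODE M21, which matched 29213 of 29322 identifiers and all 90 members. Near-identical stretches were searched for among GENCODE M21 transcripts with BLAST 2.17.0. Steps ran in Python 3.11.15 with pandas 2.3.3 and scipy 1.17.1. The adjustment and interval code was run on simulated fold changes, drawn with the authors' standard errors taken as exact. That run checks the code only and does not test the authors' fit to these libraries. The named genes were all called members, in each complex the 3 smallest p-values and the most abundant gene, the 5 highest and lowest fold changes, the isoform families, the genes at the limit of 10, and per related list the 2 smallest p-values and the most abundant gene; Nrf1, Tfam, Ppargc1a, Ldha, Pdgfra, Ptprc and some others were named after their values were seen. A gene that this rule names is not reported here. Members and lists were chosen with earlier results of these data known.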

Additional observations from a re-analysis of the deposited data

How the results depend on the processing

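The count of 0 called members held with adjustment over all genes with a p-value, at a threshold of 0.1 and with a minimum mean of 100; at an unadjusted p under 0.05, 3 members were higher (DESeq2, the authors' deposited table). Centring fold changes within exonic length classes, an alternative chosen after the data were seen, moved the lean above 0 most: 36 members were below 0 in place of 12, and the members' median was 0.02 in place of 0.11. The medians of complexes I, II, III, IV and V were then 0.02, 0.01, 0.02, 0.03 and 0.02, in place of 0.11, 0.06, 0.13, 0.12 and 0.09. These shifts are smaller than the members' median standard error of 0.13, which is about the size of the medians themselves, so that limit shows no stability. Centring on genes with a mean of at least 10 moved fold changes by 0.0018. No paired analysis was possible because the table holds no values per library, and for the same reason leaving out each replicate was not run. Low abundance limits Cox6a2, Cox8b and Cox7a1, whose intervals are the widest of the structural subunits.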

Other observations

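A further 4 inflammation-linked genes have a known tie to the respiratory chain or the mitochondrial matrix. All 4 lay above 0 and 2 were called higher, against 1.85% of all genes tested. They were picked after their values were seen, so this count cannot be read against that share. Acod1, the enzyme that makes itaconate, an inhibitor of complex II known from macrophages, had fitted levels of 1271 normalized counts in Yeti and 185.1 in wild-type and rose by 2.78 ± 0.61 (SE) on the log2 scale, adjusted p = 4.78e-04 in the authors' deposited table (DESeq2). Sod2, the superoxide dismutase of the mitochondrial matrix, had 2285 in Yeti and 1236 in wild-type and rose by 0.89 ± 0.28, adjusted p = 0.0478 in the authors' deposited table. AA467197, known in mouse as the paralog that can take the place of Ndufa4 in complex IV, had 29.2 in Yeti and 10.2 in wild-type, 1.52 ± 0.65 on the log2 scale (adjusted p = 0.314, the authors' deposited table), while Ndufa4 stood at -0.21 ± 0.17. Nos2, whose product nitric oxide inhibits complex IV, stood at 1.09 ± 0.68 (adjusted p = 0.757) with a mean of 11.4 in the authors' deposited table. Macrophage markers, whose cells express Acod1 and Nos2, had 0 of 11 called, 9 above 0 and 2 below. At an unadjusted p under 0.05 in the authors' deposited table, 5 of the 11 were higher and 0 lower, against 5.28% higher of all genes tested. Their summed fitted level was 22901 in Yeti and 14719 in wild-type, with Lyz2 and Ptprc making up most of it. The part of macrophages in these values was not tested.

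Genes with ribosomal protein names, listed after the data were seen, also had no call, against 2.84% of all genes tested. Of 79 genes with mitochondrial ribosomal names 0 were called, with 59 above 0 and a median of 0.06 in the authors' deposited table. Of 82 with cytosolic names 0 were called, with 51 above 0 and a median of 0.01. Names alone set both lists. The 79 hold the pseudogenes Mrpl48-ps (0.73 ± 0.41) and Mrpl23-ps1 (0.69 ± 0.42), and the 82 hold Rps19bp1, a binding protein by its name. At an unadjusted p under 0.05, 2 mitochondrial and 0 cytosolic genes were higher and 0 of either lower (DESeq2, the authors' deposited table).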
